A study of Mus musculus with 6 samples.

Results

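The regions described here are the intronic RBPJ peaks that were called in mitotic F9 cells and had no counterpart in the asynchronous peak list. F9 is a murine embryonal carcinoma line derived from a testicular teratoma. The study immunoprecipitated RBPJ with a custom antibody from cycling cells, labelled as 95% interphase and 5% mitosis, and from cells arrested in mitosis with nocodazole, a microtubule poison. Of its 6 samples, 4 were RBPJ immunoprecipitations, 2 from each population, and 2 were inputs. The peak list of the first immunoprecipitation of each population was used, so there was 1 list per population and no replicate check of any value. The labels name no engineered allele, and both populations were of the same line.

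A peak was taken when no asynchronous peak center lay within 250 bp of its own center and when that center lay inside a GENCODE transcript, outside exons, and away from the ends of transcripts. Near a start, the zone left out began 1 kb before it and ended 100 bp after it, and near an end it began 100 bp before it and ended 1 kb after it. This rule gave 1011 of the 3227 mitotic peaks. The regions were thus chosen by the positions of the peak calls in both lists, and the absence of an asynchronous peak and the intronic position are not results. Over the whole mitotic list, 86.8% of peaks had no asynchronous center within 250 bp, and among the 1107 intronic mitotic peaks the share was 91.3%. In the opposite direction, 91.8% of the 5206 asynchronous peaks had no mitotic center within that distance, and 1372 of those were intronic by the same definition. These 1372 peaks, called interphase-only below, and the 1009 mitotic-only peaks outside transcripts served for comparison. Both lists hold only peaks above the authors' minimum, so a region without an asynchronous peak may still have carried asynchronous signal below that limit, which the lists cannot show. The paper compared read enrichment instead of peak positions, and by that measure it classed most mitotic sites as common to both populations. Which members fall among those common sites was not examined here, so mitotic-only refers to the positions of peak calls alone.

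The members next to the 250-bp limit had scores in the range of the others. The 3 intronic mitotic peaks just inside it lay in Nrxn3 at 208 and 225 bp from an asynchronous center, with scores of 10.9 and 11.6, and in Zcwpw1 at 239 bp, with a score of 14.6. The 3 just outside it lay in Zfp516 at 267 bp, with a score of 13.1, in Gm10109 at 355 bp, with a score of 10.2, and in Trim8 at 360 bp, with a score of 10.9.

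RBPJ, also called CSL, is the DNA-binding protein through which Notch receptors reach their target genes. Without Notch signaling it sits on DNA with corepressor complexes, and the Notch intracellular domain and Mastermind proteins turn it into an activator. It recognizes a short element with the core TTCCCAC, which was searched here as TTCCCACA or TTCCCACG on either strand. CTCF is a zinc finger protein that marks insulators and the anchors of chromatin loops. Introns hold many of the distal regulatory elements of mammalian genes, and most transcription factors leave the condensed chromosomes of mitosis, with a minority staying on part of their sites.

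The sequences of the highest scoring members that contain an RBPJ element within 100 bp of the center show what such a region looks like. They are written on the plus strand of mm9, with the RBPJ element in capitals, so that an element on the minus strand reads as its reverse complement. The elements lay 86.5 bp (Gm20388), 35.5 bp (Mcf2l), 16.5 bp (Ap3m2), 44.5 bp (Ank1) and 26.5 bp (Btbd9) from the peak center.
Gm20388, chr8:124071215-124071417, plus strand: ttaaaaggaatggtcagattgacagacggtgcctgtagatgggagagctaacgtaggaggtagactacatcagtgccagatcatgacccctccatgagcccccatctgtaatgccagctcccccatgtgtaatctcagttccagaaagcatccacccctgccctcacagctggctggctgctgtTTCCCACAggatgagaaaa
Mcf2l, chr8:12902210-12902412, plus strand: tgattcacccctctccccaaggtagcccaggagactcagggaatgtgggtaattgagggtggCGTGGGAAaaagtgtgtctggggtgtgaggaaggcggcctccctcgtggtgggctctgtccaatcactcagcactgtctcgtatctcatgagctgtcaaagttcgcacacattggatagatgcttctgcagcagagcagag
Ap3m2, chr8:23901413-23901615, plus strand: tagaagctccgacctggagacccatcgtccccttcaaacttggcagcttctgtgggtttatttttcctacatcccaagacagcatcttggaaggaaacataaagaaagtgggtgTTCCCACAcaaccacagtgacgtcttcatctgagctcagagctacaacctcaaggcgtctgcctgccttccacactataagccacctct
Ank1, chr8:24088359-24088561, plus strand: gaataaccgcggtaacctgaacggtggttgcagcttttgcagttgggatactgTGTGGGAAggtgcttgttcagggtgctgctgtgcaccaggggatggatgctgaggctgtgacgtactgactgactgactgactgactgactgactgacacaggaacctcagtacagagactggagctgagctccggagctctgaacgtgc
Btbd9, chr17:30589354-30589556, plus strand: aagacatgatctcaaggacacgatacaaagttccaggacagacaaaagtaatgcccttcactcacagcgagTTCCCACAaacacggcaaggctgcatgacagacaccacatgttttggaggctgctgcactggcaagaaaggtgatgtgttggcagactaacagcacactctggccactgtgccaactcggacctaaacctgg
Of these host genes, Mcf2l encodes a guanine nucleotide exchange factor, Ap3m2 a subunit of the AP-3 adaptor complex, and Ank1 the ankyrin of the erythrocyte membrane skeleton. The peak in Mcf2l lay in intron 2 of 30, that in Ap3m2 in intron 7 of 8, that in Ank1 in intron 1 of 43 and that in Btbd9 in intron 6 of 10. The scores were 15.3 in Gm20388, 12.4 in Mcf2l, Ap3m2 and Ank1, and 11.6 in Btbd9, which tied with Ltbp4. Of the 5 peaks, 4 were on chromosome 8, which held 18.5% of all members.

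Members with a CTCF-like sequence are shown next, since among the motifs searched this was the one whose share in the members stood furthest, as a ratio, above that of introns of similar GC content. The capitals mark matches to the core of the CTCF site in the study's gel-shift fragment, a stretch of 12 bases for which up to 2 mismatches were allowed. Amn held 2 overlapping matches with 2 mismatches each, Uqcr11 a match with 1 mismatch at 10.5 bp from the center, and Ttll11 a match with 2 mismatches at 4.5 bp from the center.
Amn, chr12:112510747-112510949, plus strand: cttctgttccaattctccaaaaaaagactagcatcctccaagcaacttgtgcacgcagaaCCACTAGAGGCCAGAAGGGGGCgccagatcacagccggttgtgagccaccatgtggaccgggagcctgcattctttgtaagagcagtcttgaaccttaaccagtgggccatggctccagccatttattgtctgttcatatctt
Uqcr11, chr10:79866157-79866359, plus strand: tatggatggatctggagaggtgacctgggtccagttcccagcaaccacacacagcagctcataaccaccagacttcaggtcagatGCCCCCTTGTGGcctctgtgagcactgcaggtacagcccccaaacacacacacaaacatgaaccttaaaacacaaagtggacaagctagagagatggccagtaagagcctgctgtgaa
Ttll11, chr2:35724766-35724968, plus strand: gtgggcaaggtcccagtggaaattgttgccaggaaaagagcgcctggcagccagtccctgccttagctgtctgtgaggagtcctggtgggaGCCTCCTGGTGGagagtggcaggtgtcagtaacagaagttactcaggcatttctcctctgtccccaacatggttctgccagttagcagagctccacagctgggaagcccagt
Amn encodes amnionless, a partner of the cubilin receptor, Uqcr11 a subunit of respiratory complex III, and Ttll11, which tied with Crtc1 for the last of 5 places, a tubulin polyglutamylase. Their peaks scored 16.0, 14.6 and 13.8 and lay in intron 3 of 11, intron 2 of 2 and intron 6 of 8. The other members among the 5 highest scoring with a CTCF match were in St6galnac1 (score 18.9, intron 1 of 8) and AW555464 (score 16.0, intron 1 of 18).

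RBPJ occupancy at most members was close to the lower limit of the authors' scores. The score of 508 members was 10.2, the lowest in the mitotic list, which was 50.2% of them (exact 95% interval 47.1 to 53.4), and 236, 128 and 59 members were on the next steps of 10.9, 11.6 and 12.4. Of the 1011 members, 139 scored at least 1.2 times the lowest score, which was 13.7% (11.7 to 16.0), against 19.4% (17.6 to 21.3) of the other mitotic-only peaks and 40.6% (30.7 to 51.1) of the 96 intronic mitotic peaks that had an asynchronous center within 250 bp. The highest scoring 25% of the mitotic list held 182 members and 47 of those 96 peaks. The median score was 10.2 for members, 10.9 for the other mitotic-only peaks and 11.6 for the intronic peaks with an asynchronous neighbor. Because the score was also what the authors thresholded, these values are a description of the lists and were not tested. The lists give no read numbers, so the depth behind a score is unknown, and all intervals cover counting error over peaks only.

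**Figure D1:**
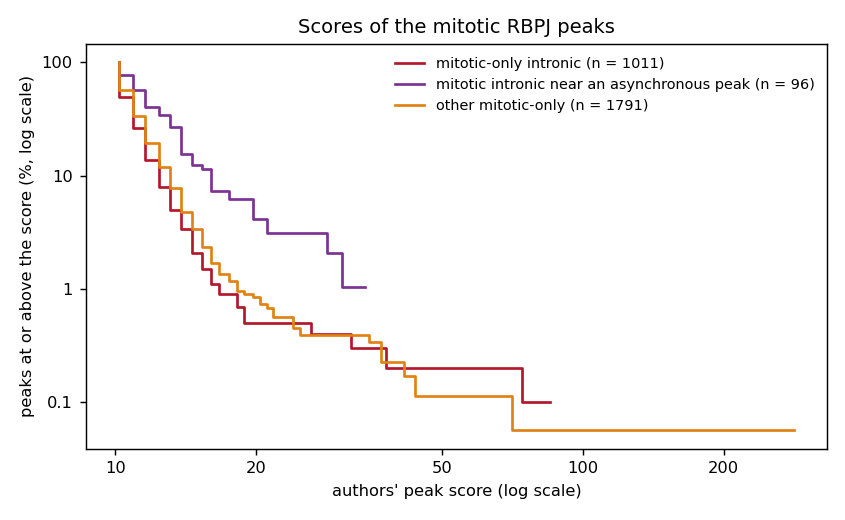
Scores of the mitotic RBPJ peaks: the horizontal axis gives the authors' score and the vertical axis the percentage of peaks at or above it, both on log scales, with 1 line per class of peaks. The line of the mitotic-only intronic peaks falls fastest, with 13.7% at 1.2 times the lowest score or more, and ends in 5 peaks between 26.2 and 85.2.

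Only 5 members scored above 20, and the sequence of each aligned to other places of the mouse genome. They lay in Mid1 (score 85.2), Pisd-ps2 (74.3), Jarid2 (37.9), C330019G07Rik (32.0) and Gm2420 (26.2). Mid1 encodes a ubiquitin ligase of microtubules and spans the boundary of the pseudoautosomal region of the laboratory mouse X chromosome. Jarid2 encodes a cofactor of the Polycomb repressive complex PRC2. The next members were a peak in Tiam2, a Rac exchange factor gene, at 18.9, a pair in St6galnac1, a sialyltransferase gene, at 18.9 and 18.2, and single peaks in Thada at 18.2 and in Dach1 and Cabp1, which tied at 16.7. The sequences of 3 of them are given because they carry this observation. None of the 3 held TTCCCACA, TTCCCACG or a CTCF match, and therefore no letters are in capitals. The repeat unit in Tiam2 did carry the core TTCCCAC followed by another base, 8 times on the minus strand.
Mid1, chrX:166430591-166430793, plus strand: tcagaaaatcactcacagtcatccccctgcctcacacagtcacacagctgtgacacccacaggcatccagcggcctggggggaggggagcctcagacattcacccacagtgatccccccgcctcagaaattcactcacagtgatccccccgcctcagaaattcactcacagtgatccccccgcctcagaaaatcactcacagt
Jarid2, chr13:44964887-44965089, plus strand: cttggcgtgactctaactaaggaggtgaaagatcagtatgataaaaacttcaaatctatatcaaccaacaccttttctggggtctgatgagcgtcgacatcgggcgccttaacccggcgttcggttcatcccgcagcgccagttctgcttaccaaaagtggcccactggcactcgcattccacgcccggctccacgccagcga
Tiam2, chr17:3352937-3353139, plus strand: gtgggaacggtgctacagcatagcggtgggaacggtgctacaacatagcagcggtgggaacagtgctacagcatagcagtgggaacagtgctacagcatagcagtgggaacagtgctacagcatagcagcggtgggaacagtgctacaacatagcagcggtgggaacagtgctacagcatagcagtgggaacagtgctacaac
The Mid1 sequence had 451 other alignments, 183 of them within 10 kb of the peak, and the Tiam2 sequence is built of tandem copies of a short unit, with 5 further alignments in the same 10 kb. The Jarid2 sequence had no copy over 75% of its length, but pieces of it had 28603 other alignments and together covered all of its 203 bases. Alignments of repeated sequence can overlap, so these are not counts of separate places. The peaks in Pisd-ps2, C330019G07Rik and Gm2420 had 1, 2 and 1 near-identical copies elsewhere, with a best identity of 94.6%, 95.6% and 95.6%. Pisd-ps2 is a pseudogene of Pisd, a phospholipid biosynthesis gene, and the peak in C330019G07Rik also lies within a transcript of Pisd. The peak sequence in Pisd-ps2, on chromosome 17, matched Pisd-ps1 on chromosome 11, and that in C330019G07Rik, on chromosome 5, matched both Pisd-ps1 and Pisd-ps2, while that in Gm2420 matched a place in Sfi1 on chromosome 11. No peak of either list overlapped any of these copies. The weaker of the St6galnac1 peaks matched a second place in the same gene at 96.6% identity, where the mitotic list held a peak with a score of 10.2.

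Of the 10 highest scoring members, with Dach1 taken from the tie for the last place, 7 had alignments that covered at least 75% of the peak, and the other 3 (the stronger St6galnac1 peak, Thada and Dach1) had none, nor did Cabp1. Of the next 40 members, 5 were covered to that extent. Among interphase-only intronic peaks, 1 of the 10 highest scoring and 10 of the next 40 were. Near-identical copies of a whole peak were rare in general, at 36 members, or 3.56% (2.51 to 4.90), and at 27 interphase-only intronic peaks, or 1.97% (1.30 to 2.85). The authors kept uniquely aligned reads, and the part of repeated sequence in these scores was not tested.

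The members were richer in GC than introns in general. Within 100 bp of the center, GC content was 53.3% ± 3.24 (mean and SD over 1011 peaks), against 55.2% ± 3.20 over the 1372 interphase-only intronic peaks. The comparison set for introns was every window of that size centered at 1-kb steps in the same intronic class, 917280 windows in all, with a GC content of 42.4% ± 7.72. A GC content from 50% to under 60% was found in 845 members, or 83.6%, and in 142376 windows, or 15.5%. The number of CpG dinucleotides was 3.64 per member, 4.34 per interphase-only peak, 1.73 per intron window and 2.94 per window of GC content from 50% to under 60%. Mitotic-only peaks outside transcripts were close to the members, with a GC content of 52.9% ± 3.28 and 3.65 CpG dinucleotides. These are descriptions over peaks, which are not replicates of a condition.

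**Figure D2:**
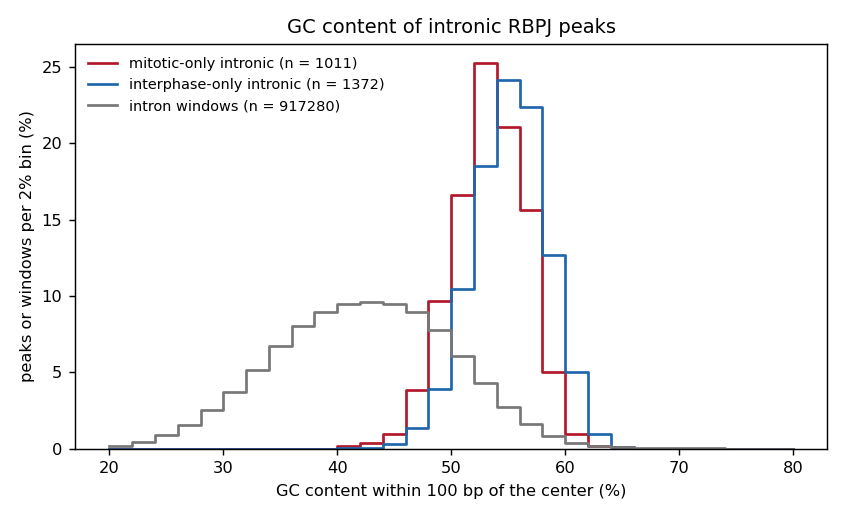
GC content of intronic RBPJ peaks: the horizontal axis gives the GC content within 100 bp of the center and the vertical axis the percentage of peaks or intron windows in each bin of 2%. The peaks of both classes lie in a narrow band to the right of the windows, with a median of 53.2% for mitotic-only and 55.2% for interphase-only peaks against 42.3% for windows.

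RBPJ elements were rare in the members, at a share that included that of introns of similar GC content in its interval. TTCCCACA or TTCCCACG was found within 100 bp of the center in 24 of 1011 members, or 2.37% (exact 95% interval 1.53 to 3.51). The share was 1.43% over all intron windows and 2.06% over windows with a GC content from 50% to under 60%. Of the interphase-only intronic peaks, 140, or 10.2% (8.65 to 11.9), held an element. The odds ratio of members over interphase-only peaks was 0.214 (95% interval by Woolf's method 0.138 to 0.333; adjusted p = 3.43e-14 by Fisher's exact test, two-sided). Of the 96 intronic mitotic peaks with an asynchronous center within 250 bp, 14 held an element, or 14.6% (8.21 to 23.3), and the members were below them as well (odds ratio 0.142, 0.0710 to 0.286; adjusted p = 2.75e-06, two-sided Fisher's exact test). Mitotic-only peaks outside transcripts held an element in 2.08% (21 of 1009), and a difference from the members was not detected (odds ratio 1.14, 0.633 to 2.07; adjusted p = 0.818, two-sided Fisher's exact test). All p-values for shares were adjusted over 15 comparisons (Benjamini-Hochberg), and each test compares peaks of these lists, not replicate cultures.

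GC content moved with this difference, so the shares were also compared among peaks with a GC content from 50% to under 60% only. There, 2.84% of 845 members and 9.93% of interphase-only intronic peaks held an RBPJ element, with an odds ratio of 0.265 (unadjusted p = 1.06e-10, Fisher's exact test). The shorter sequence TTCCCA gave the same order, with 228 members, or 22.6%, against 40.7% of interphase-only peaks (odds ratio 0.423, 0.353 to 0.508; adjusted p = 6.21e-20, two-sided Fisher's exact test) and 21.2% of GC-restricted windows. Among the members, the share was alike below and above the middle of the scores. An RBPJ element was present in 2.36% (1.23 to 4.09) of the 508 members with the lowest score and in 2.39% (1.24 to 4.13) of the 503 above it. Of the 24 elements in members, 6 lay within 25 bp of the center, and an even spread over the window would put 25.4% there. Of the 140 interphase-only peaks with an element, 65 had one within that distance, or 46.4% (38.0 to 55.0). The median distance from the center was 37.5 bp in members and 28.5 bp in interphase-only peaks.

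The 24 members with an RBPJ element were spread over 13 autosomes and the X chromosome, with 7 on chromosome 8. That chromosome held 187 of all 1011 members, or 18.5%. Besides those printed above, they lay in Ltbp4, Gas7, F2r, Rorb, Cd38, Ninj2, Diap2, Rnpepl1, Susd2, Alox12b, Unc79, Pga5, Nrd1, Nrip2, 4932443I19Rik, Vps36, 1700007B14Rik, Rnf26 and Gnb5. The element was TTCCCACG in Mcf2l, Ltbp4, Susd2 and Rnf26 and TTCCCACA in the others. The closest element to a peak center was in Cd38, at 0.5 bp, in a peak with a score of 10.9 whose nearest asynchronous center was 415 bp away. Nrd1 was the single member with both an RBPJ element and a CTCF match.

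CTCF matches were less frequent in the members than in interphase-only peaks and more frequent than in introns of similar GC content. Up to 2 mismatches were found in 45 members, or 4.45% (3.26 to 5.91), against 185 interphase-only intronic peaks, or 13.5% (11.7 to 15.4), with an odds ratio of 0.299 (0.213 to 0.419; adjusted p = 1.06e-13, two-sided Fisher's exact test). Intronic mitotic peaks with an asynchronous neighbor held a match in 19.8% (19 of 96; odds ratio of members over them 0.189, 0.105 to 0.339; adjusted p = 1.57e-06, two-sided Fisher's exact test). Mitotic-only peaks outside transcripts held one in 5.15% (52 of 1009), and a difference from the members was again not detected (odds ratio 0.857, 0.570 to 1.29; adjusted p = 0.541, Fisher's exact test). The share of all intron windows with a match was 0.879%, and that of windows with a GC content from 50% to under 60% was 1.91%, below the interval of the members. Among peaks in that GC range, the match was in 4.62% of members and 13.8% of interphase-only peaks. Either motif was present in 68 members, or 6.73%, and in 315 interphase-only peaks, or 23.0%. The other members contained neither.

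With 1 mismatch at most, 9 members remained, a rate of 0.890% against 3.79% of interphase-only peaks. These 9 were in Uqcr11, Ptpn18, Pak6, Gm15417, Rph3al, Syne2, Jak2, Man2b2 and Sema3b and were listed after their values were seen. Jak2 encodes the Janus kinase 2 of cytokine receptors, Syne2 the nuclear envelope protein nesprin-2, and Sema3b a secreted semaphorin. Except for Uqcr11, their scores were 10.2 or 10.9. The match in Jak2 was 5.5 bp and that in Pak6 11.5 bp from the center.

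The sites of other transcription factors of embryonal carcinoma cells were scarce. The octamer ATTTGCAT, which POU factors such as OCT4 bind, was in 5 members, or 0.495% (0.161 to 1.15), against 1.46% of interphase-only intronic peaks (odds ratio 0.336, 0.126 to 0.898; adjusted p = 0.0462, two-sided Fisher's exact test). TCAAGGTCA, the element of the orphan receptor ESRRB, was in 6 members, or 0.593% (0.218 to 1.29), against 1.90% (odds ratio 0.309, 0.127 to 0.754; adjusted p = 0.0135, Fisher's exact test). CACGTG, the E-box of basic helix-loop-helix factors such as MYC and USF, was in 43 members, or 4.25% (3.09 to 5.69), against 7.94% (odds ratio 0.515, 0.358 to 0.740; adjusted p = 0.000618, Fisher's exact test). In windows with a GC content from 50% to under 60%, these 3 shares were 0.476%, 0.504% and 3.59%, within the intervals of the members. The calls for the octamer and for ESRRB were lost in 3 and 2 of 3 alternatives, and that for the E-box in none.

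The remaining sequences did not pass the test between members and interphase-only intronic peaks. GGGCGGGG, bound by SP and KLF factors, was in 1.68% against 3.06% (odds ratio 0.542, 0.306 to 0.957; adjusted p = 0.0552, Fisher's exact test). TGANTCA, bound by AP-1, was in 6.63% against 6.56% (odds ratio 1.01, 0.729 to 1.40; adjusted p = 1.0, Fisher's exact test). Runs of at least 16 bases of CA or TG repeats were in 14 members and 10 interphase-only peaks (odds ratio 1.91, 0.846 to 4.32; adjusted p = 0.218, Fisher's exact test), and such runs of GA or TC repeats in 4 and 3 (odds ratio 1.81, 0.405 to 8.12; adjusted p = 0.541, Fisher's exact test). In windows with a GC content from 50% to under 60%, the shares of these 4 sequences were 1.63%, 5.16%, 2.07% and 1.11%. The window shares for SP and KLF and for CA repeats were within the intervals of the members. That for AP-1 was just below the members' interval (5.17 to 8.34), and that for GA repeats was above it (0.396% of members, 0.108 to 1.01).

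**Figure D3:**
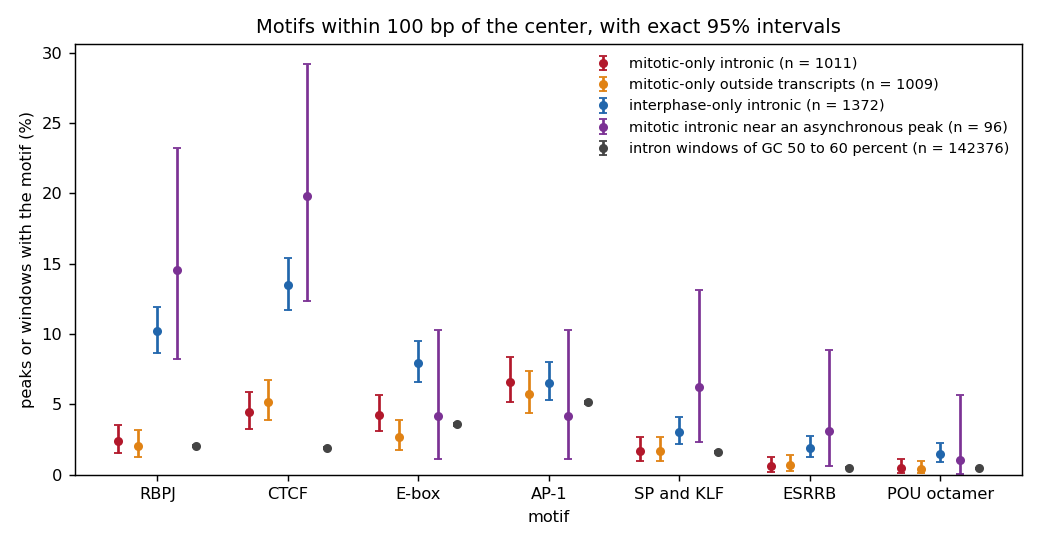
Motifs within 100 bp of the center, with exact 95% intervals: the horizontal axis gives the motif and the vertical axis the percentage of peaks or intron windows that hold it, with points for the share and bars for the interval. For RBPJ and CTCF the mitotic-only peaks in introns and those outside transcripts lie at 2.08% to 5.15%. The interphase-only intronic peaks and the intronic mitotic peaks with an asynchronous neighbor lie at 10.2% to 19.8%.

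Members lay nearer to asynchronous RBPJ peaks than intron windows did. By the rule none was within 250 bp. The median distance to the nearest asynchronous center was 49.3 kb for members (quartiles 17.7 and 160 kb), against 331 kb for intron windows beyond 250 bp and 127 kb for those with a GC content from 50% to under 60%. An asynchronous center lay within 1 kb of 18 members, or 1.78% (1.06 to 2.80), within 10 kb of 161, or 15.9% (13.7 to 18.3), and within 50 kb of 508, or 50.2% (47.1 to 53.4). The corresponding shares of GC-restricted windows were 0.669%, 7.96% and 29.9%. The intron that held the member also held an asynchronous center in 172 cases, or 17.0%. These include the 34 members in the single long first intron of the Gm20388 gene model, and a corresponding share of intron windows was not computed. Another member lay within 10 kb of 85 members, or 8.41%, and within 50 kb of 25.3% of them. The spacing of intron windows or of interphase-only peaks was not computed, so these shares have no background. Neighboring peaks are not independent of each other, and these distances were not tested.

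**Figure D4:**
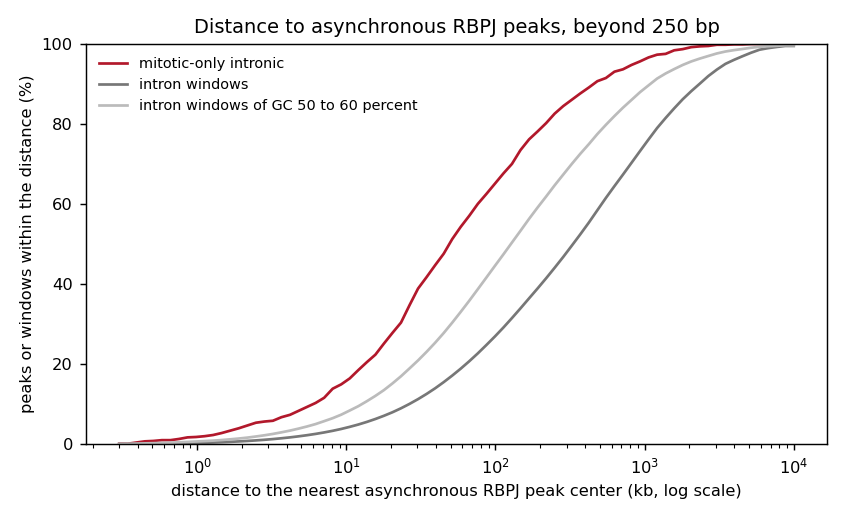
Distance to asynchronous RBPJ peaks, beyond 250 bp: the horizontal axis gives the distance from the center to the nearest asynchronous peak center in kb on a log scale and the vertical axis the percentage of mitotic-only intronic peaks or intron windows within it. At 50 kb the line of the peaks is at 50.2% and those of all and of GC-restricted windows at 16.8% and 29.9%.

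The members were unevenly spread over the chromosomes. Chromosome 8 held 187 of 1011 members, chromosome 6 held 110, and chromosomes 4 and 12 held 85 each. Chromosomes 6, 8 and 12 together held 382 members, or 37.8%, but 15.3% of the intron windows and 15.7% of the windows with a GC content from 50% to under 60%. They held 313 interphase-only intronic peaks, or 22.8%. Per 1000 GC-restricted windows, members numbered 20.5 on chromosome 8, 14.9 on chromosome 6 and 14.5 on chromosome 12, against 5.24 on the other chromosomes together. Interphase-only peaks numbered 18.2, 10.6 and 11.8 there, against 8.82 on the others. Thus members were denser than interphase-only peaks on these 3 chromosomes and sparser on each of the other chromosomes that held a peak. Members were the smaller set, with 7.10 against 9.64 per 1000 over all chromosomes. As a share of each set, members were slightly ahead on chromosomes 3 (3.17% against 3.13%), 14 (3.07% against 2.77%), 17 (4.55% against 4.52%) and 19 (3.36% against 3.21%). The remaining chromosomes with a peak held a smaller share of the members. Chromosome X held 4 members, or 1.56 per 1000 GC-restricted windows, and 9 interphase-only peaks, or 3.50, and chromosome Y, with 27 such windows, held none of either.

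**Figure D5:**
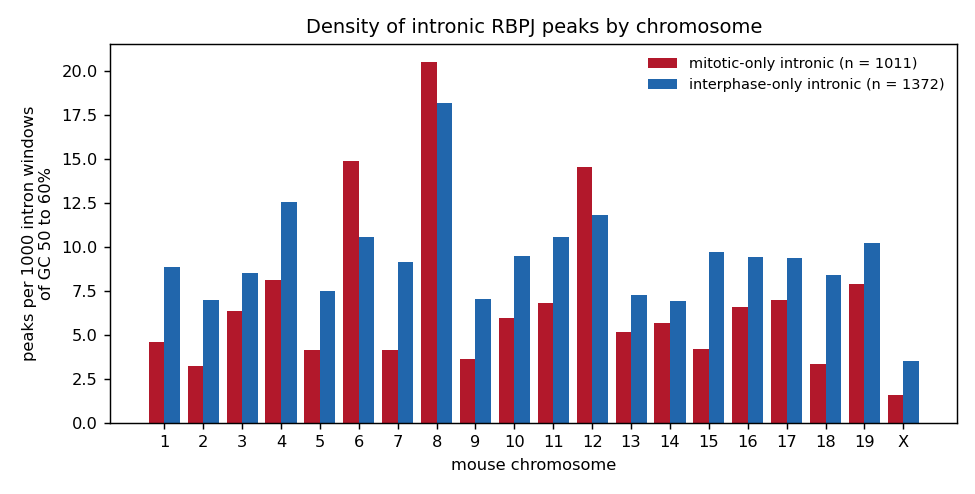
Density of intronic RBPJ peaks by chromosome: the horizontal axis gives the chromosome and the vertical axis the number of peaks per 1000 intron windows with a GC content from 50% to under 60%, with bars for both classes of peaks. The bars of mitotic-only peaks exceed those of interphase-only peaks on chromosomes 6, 8 and 12, where they reach 14.9, 20.5 and 14.5.

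On chromosomes 6 and 12 the members were confined to the distal part with few exceptions, and interphase-only peaks were likewise denser there. The division points given here were chosen after the positions were seen. On chromosome 6, 7 members lay below 100 Mb and 103 above it, which is 1.63 and 33.3 per 1000 GC-restricted windows. Interphase-only peaks numbered 17 and 61 on these sides, or 3.97 and 19.7. On chromosome 12, 5 members lay below 75 Mb and 80 above it, or 2.23 and 22.2 per 1000 such windows, and interphase-only peaks numbered 6 and 63, or 2.67 and 17.5. On chromosome 8 both sides of 70 Mb were dense, with 44 and 143 members, or 17.5 and 21.7 per 1000. Across 526 bins of 5 Mb with at least 200 intron windows, 253 held no member and 194 held no interphase-only peak. Taken in order of members per window, 43 bins were needed to reach 507 members, or 50.1%, a share set by this choice. They held 9.52% of the windows, 16.6% of the GC-restricted windows and 29.4% of the interphase-only peaks. Because the bins were picked for their members, lower shares of the others follow in part from the choice.

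The densest bin was chromosome 14 from 95 to 100 Mb, with 11 members and 6 interphase-only peaks in 987 intron windows. It holds Dach1, Dis3 and Pibf1, and Klf5, a Krüppel-like factor gene of pluripotent cells, starts at 99697910 in mm9. The 6 members in Pibf1, which encodes a centrosomal protein, scored 13.1, 12.4, 10.9, 10.2, 10.2 and 10.2. The one with the score of 13.1 was in intron 17 of 17, and the others lay in introns 2, 4, 6 and 9. Their GC content was 47.3% to 54.2%. The nearest asynchronous center was 696, 1274, 1518 and 2403 bp away for 4 of them. Dach1, a transcriptional cofactor gene, held 2 members in its first intron, with scores of 16.7 and 11.6, at 422078 and 422664 bp from an asynchronous center. The other members of the bin were 2 in Dis3, an exosome nuclease gene, and 1 in 6720463M24Rik.

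The 1011 members lay in 799 host genes, and 969 of them, or 95.8%, were in a protein-coding gene. A single member was found in 684 genes, 2 in 80 and 3 or more in 35. Gm20388 had the most, with 34. The model of Gm20388 spans 4435 kb of chromosome 8 and overlaps many other genes, and all 34 members were in its first intron. Only 13 of them lay in another transcript as well, among them Gse1, Rab4a, Galnt2, Banp, Abcb10, Fbxo31, Ankrd11 and Nup133. Without this gene model 990 members remained.

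The genes with the next most members were Cacna1c with 8, Btbd9 with 7, and Pibf1 and Sox5 with 6 each. Cacna1c encodes the pore subunit of an L-type calcium channel and spans 604 kb of chromosome 6. Its members scored 10.2 to 13.1, and 5 of the 8 lay in intron 3. The 7 members in Btbd9, a BTB domain gene of chromosome 17, scored 10.2 to 12.4 and lay in introns 1, 3, 6, 7 and 8. Sox5, which encodes a SoxD transcription factor, held 6 members with scores of 10.2 to 13.1 in introns 1, 3, 6 and 9, all at least 152385 bp from an asynchronous center.

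Members were closer to the start of their host gene than intron windows were, and a difference from interphase-only peaks in the share of first introns was not detected. The first intron held 400 members, or 39.6% (36.5 to 42.7), against 582 interphase-only peaks, or 42.4% (39.8 to 45.1), with an odds ratio of 0.889 (0.753 to 1.05; adjusted p = 0.225, two-sided Fisher's exact test). In intron windows the share was 28.2%, and 30.5% at a GC content from 50% to under 60%. Of the 400 members, 34 lay in the long first intron of the Gm20388 gene model. With 1 peak per host gene, the first intron held 39.8% of members and 42.3% of interphase-only peaks. The start of the host gene was within 10 kb of 310 members, or 30.7%, against 35.1% of interphase-only peaks, 14.9% of windows and 19.9% of GC-restricted windows. The median span of the host gene was 83.1 kb over members, 65.4 kb over interphase-only peaks and 155 kb over windows. Of the 795 host genes that held at least 1 window, 286, or 36.0%, also held an asynchronous peak in the gene or the 1 kb upstream of it, against 2628, or 13.7%, of the 19181 other genes with windows. Host genes were longer than genes with windows in general, with a median span of 64.7 against 20.9 kb, and the part of length in this difference was not tested.

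Genes of the Notch pathway itself were compared with all genes by their counts. Of 44 genes of the pathway list with intron windows, 4 held 1 member each, a share of 9.09%, and over all 19976 genes with windows 795 were hosts, or 3.98%. Per 1000 windows there were 1.88 members in the list and 1.10 over all genes, and per 1000 GC-restricted windows 8.05 and 7.10. Rfng, a Fringe glycosyltransferase gene that modifies Notch receptors, held a peak with a score of 12.4 in intron 3 of 7. Maml1, a Mastermind coactivator gene, and Mib2, a ubiquitin ligase gene for Notch ligands, each held a peak with the lowest score of 10.2. The list held 5 interphase-only peaks in 4 genes. With so few peaks the lists below are described by counts and were not tested.

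Among 30 pluripotency genes with windows, 3 held 4 members, and 7 held 13 interphase-only peaks. Interphase-only peaks in the list numbered 58.6 per 1000 GC-restricted windows, against 9.64 over all genes, so a raised density was not particular to members. Members numbered 3.67 per 1000 windows and 18.02 per 1000 GC-restricted windows, against 1.10 and 7.10 over all genes. Besides the Jarid2 peak, these were peaks in the first introns of Esrrb (scores 12.4 and 10.2) and Nr5a2 (10.9), both nuclear receptor genes. Pieces of the Jarid2 sequence had 28603 other alignments, which is not a count of separate places. Of 59 cell cycle and mitosis genes, Mad1l1, a spindle checkpoint gene, was the only host (1.69%), with a score of 10.2, and members numbered 0.385 per 1000 windows and 2.32 per 1000 GC-restricted windows.

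Of 56 Wnt pathway genes, 5 held 1 member each, or 8.93% against 3.98% of all genes. This was 1.84 members per 1000 windows and 7.08 per 1000 GC-restricted windows, against 1.10 and 7.10 over all genes. Wnt1 (12.4), Wnt5b (11.6) and Wnt3a (10.2) encode ligands, as does Wnt11, and Lrp6 (10.2) encodes a co-receptor. Of 49 genes of chromatin architecture and Polycomb complexes, 2 were hosts, or 4.08%, close to the share of all genes. They were Jarid2, with the same peak of repeated sequence, and Cbx7, with a peak that scored 10.2. Of 58 long neuronal and adhesion genes, 12 were hosts, or 20.7%, and held 34 members. In these long genes members numbered 0.583 per 1000 windows, below the 1.10 over all genes, but 8.62 per 1000 GC-restricted windows, above the 7.10 over all genes. Interphase-only peaks in the same genes numbered 20, or 5.07 per 1000 GC-restricted windows, against 9.64 over all genes. The highest scoring members of the list were in Nrxn3 (13.1 and 12.4), Sox5 (13.1) and Cdh13 (13.1), and the stronger Nrxn3 peak had 68 near-identical copies elsewhere. Sox5, Cdh13 and Nrxn3 lie on chromosomes 6, 8 and 12, where members were denser than interphase-only peaks in introns generally. There members numbered 17.1 per 1000 GC-restricted windows, against 5.24 on the other chromosomes. The part of chromosome in the densities of the long genes was not tested.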

How the data were processed

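Anti-RBPJ ChIP-seq peak lists of asynchronous and mitotic F9 cells were examined, 1 list for each. The authors aligned reads uniquely to mm9 with Bowtie 0.12.7 (per the labels' processing notes), used HOMER with the input of each population to call peaks, and applied a minimum read density. The deposited score values are the authors' peak scores, whose unit the lists do not give, and they were used only within a list. The second immunoprecipitations, the inputs and the reads were not used here. Peaks were 173 bp (asynchronous) and 203 bp (mitotic) wide.

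Centers were classed with the GENCODE annotation of NCBIM37, which is mm9, with priority to promoter, end region, exon and intron. The host gene was the protein-coding one, then the longest. Motifs were counted on both strands within 100 bp of the center. Shares have exact Clopper-Pearson 95% intervals, and counts of peaks were compared by two-sided Fisher's exact tests with Woolf intervals, adjusted over 15 comparisons at a threshold of 0.05. Copies were alignments by blastn 2.17.0 of at least 90% identity over 75% of a peak, and partial alignments had an E-value of at most 1e-05. Python 3.11.15, pandas 2.3.3, numpy 2.4.6, scipy 1.17.1, pysam 0.24.0 and matplotlib 3.10.9 were used. The motif search, the classes and the distances were tested on simulated data, and 200 of 200 planted RBPJ elements and 14 of 14 positions were recovered.

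The members, the gene lists and the motifs were chosen with earlier results of these data known. Genes are named for the 10 highest scoring members, the 5 genes with most members, the 5 highest scoring members with each motif, up to 4 members per gene list and the peaks next to the 250-bp limit. Other names were chosen after their values were seen, and 1 host gene of the Notch pathway list is counted but not reported by name here. Alternatives were tried for the definition of a member, the score, the annotation, the motif and its window, GC content, chromosomes and copies.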

Additional observations from a re-analysis of the deposited data

How the results depend on the processing

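The number of members stayed between 924 and 1042 under 7 of 8 alternatives (overlap of 1 bp, 1 kb between centers, protein-coding transcripts, whole peak in the intron, no sex chromosomes, no copied peaks, no Gm20388 model) and was 503 when only scores at or above the list median were kept, since the median of 10.9 lies above the lowest score. The odds ratios between members and interphase-only intronic peaks kept their direction and their side of the threshold in all 14 alternatives for the RBPJ element (0.152 to 0.423; largest p 1.06e-10, Fisher's exact test) and all 14 for CTCF (0.228 to 0.443; largest p 4.55e-06, Fisher's exact test), and the first intron did not pass the threshold in any of 9 (0.871 to 0.998). The restriction to GC content from 50% to under 60%, the removal of chromosomes 6, 8 and 12, of copied peaks and of Gm20388 were chosen after the data were seen. Except for AP-1, the shares of the other motifs kept their direction but not always their call. The AP-1 odds ratio, 1.01 in the main setting, ranged from 0.713 to 1.15 and so changed direction, with no unadjusted p under 0.05. The octamer (odds ratio 0.348 to 0.396) and the SP and KLF element (0.504 to 0.653) lost their unadjusted p under 0.05 in 3 of 3 alternatives, the ESRRB element (0.348 to 0.677) in 2 of 3, and CA repeats gained one at scores from the median up (odds ratio 4.98, p = 0.0386, Fisher's exact test), where the cause was not tested. A comparison of repeat-masked centers and the removal of such peaks were not run, because the genome used here is not masked. No paired analysis was possible because a single list per population was used. The number of peaks limits the precision of every share.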
